A study of Saccharomyces cerevisiae with 142 samples.

Results

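The 10 genes described here carry the response of a budding yeast a cell to a mating partner, or make the pheromone that the a cell sends out. They are STE2, GPA1, STE4, FUS3, STE12, FAR1, SST2, BAR1, MFA1 and MFA2. They were chosen by name, not by a cut on their values, but with earlier results of these data known. All 10 were measured, each by 1 probe set, among 5449 genes with a named probe set. In haploid yeast, an a cell detects alpha factor, the pheromone of alpha cells, through a receptor coupled to a heterotrimeric G protein. The freed beta-gamma dimer starts a MAP kinase cascade, which switches on mating genes through the transcription factor Ste12 and stops division in G1 through Far1. A second set of proteins lets the cell turn the response off again, and the a-factor genes supply the signal in the other direction.

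RNA from synchronized cultures was hybridised to 142 Affymetrix arrays, which made 9 time courses of 6 groups in the strain backgrounds BF264-15DU and BF264-15D. Wild type at 30 °C (BF264-15DU, MATa bar1) consisted of G1 cells selected by size through elutriation, followed in YEPD with 1 M sorbitol in 2 courses of 14 arrays each, from 30 to 254 and from 38 to 262 min. Wild type at 37 °C (BF264-15DU, mat a bar1) was grown at 25 °C, and its small daughter cells, also elutriated, were moved to YEPD prewarmed to 37 °C for 1 course of 15 arrays, from 15 to 225 min. The cyclin mutant (BF264-15DU, MATa) carried disruptions of clb1 to clb6 by the marker genes URA3, LEU2, TRP1, HIS2, ARG4 and APE1, together with GAL1-CLB1:LEU2, and its label did not list bar1. It was elutriated, grown as the wild type at 30 °C, and followed in 2 courses of 15 arrays each, from 38 to 262 and from 30 to 254 min. The cdc20 strain (BF264-15DU, MATa bar1) carried cdc20::LEU2, Pgall-CDC20::ADE2 as the label spells it, and CFP-TUB1::URA3. It was elutriated and grown in the same way, and gave courses of 14 and 18 arrays, from 40 to 300 and from 20 to 360 min. The cdc14-3 and cdc15-2 strains (both BF264-15D, MATa bar1) were arrested with alpha factor at 25 °C in YEP with dextrose and released at 37 °C. They gave 1 course each, with 21 arrays from 0 to 240 min and 16 arrays from 0 to 180 min. All groups were thus a cells, and all but the cyclin mutant were labelled bar1; whether that allele is a deletion is not given in the sources used here. Synchronization by alpha factor or by size, the array series and, apart from wild type at 37 °C, the temperature went together with the group, so these cannot be told apart.

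All values below are log2 of the deposited probe set intensity, and they compare a gene with itself across arrays, never one gene with another. Array medians lay between 1056 and 1362 intensity units. The values of the second wild type course at 30 °C were displaced by 1 row in the deposited table: its correlation with the first course was 0.0461 as deposited and 0.996 after moving the values up 1 row, which was done throughout. In the cyclin mutant the mean at 100 to 180 min was 7.10 and 7.01 for CLB2, against 11.06 and 10.42 in wild type at 30 °C, and CLB3 and CLB4 were below their wild type range on every array. CLB1, which the strain also carries behind the GAL1 promoter, lay at 10.43 to 11.37 there, and CLB5 was not lower (10.71 and 10.34 against 9.75 and 10.08 at 100 to 180 min). CLB6 stood at 9.42 and 9.54 against 10.28 and 10.42 in that window, and its arrays overlapped those of wild type over the whole courses. Whether the CLB5 and CLB6 probes lie in the disrupted stretch is not given in the sources used here. CDC20 ranged from 8.63 to 9.72 in the cdc20 courses and from 7.44 to 10.55 in wild type at 30 °C. The cdc14-3 and cdc15-2 alleles act on the protein, so the mRNA level does not check them. Of the markers of the opposite mating type, STE3 lay at 6.11 to 8.15 and SAG1 at 8.76 to 11.02 over all courses. RNA integrity was read from the TDH1 controls, whose 3' minus 5' signal averaged 1.00 in cdc14-3, 1.97 in cdc15-2, 2.98 and 2.59 in cdc20, and 2.15 or less in all others. Its part in the results below was not tested. In bulk samples a change in the share of cells in a given state and a change in RNA per cell cannot be told apart.

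The first question was which genes of the set changed during a course. A gene counted as changing where a spline of time fitted with limma had a Benjamini-Hochberg adjusted p under 0.05 over all 5449 genes and its fitted log2 values spanned at least 1 unit. By that rule 7 of 10 genes changed in wild type at 30 °C, where 36% of all genes did. The counts were 5 of 10 in wild type at 37 °C (32.5% of all genes), 7 in the cyclin mutant (37.4%), 9 in cdc20 (56.1%), 7 in cdc14-3 (22.7%) and 6 in cdc15-2 (18.9%). FAR1 and MFA1 changed in all 6 groups. Under 1 alternative of processing or left-out arrays or courses, the FAR1 range in cdc14-3 fell to 0.81, under the threshold. The MFA1 range did so under 1 alternative each in cdc14-3 (0.74), cdc20 (0.995) and wild type at 30 °C (0.90). The count of cdc20 included BAR1, whose signal was low there. The median fitted range over the 10 genes lay between 1.01 and 1.14 in 4 of the groups, and it was 1.32 in cdc20 and 1.61 in the cyclin mutant.

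**Figure D1:**
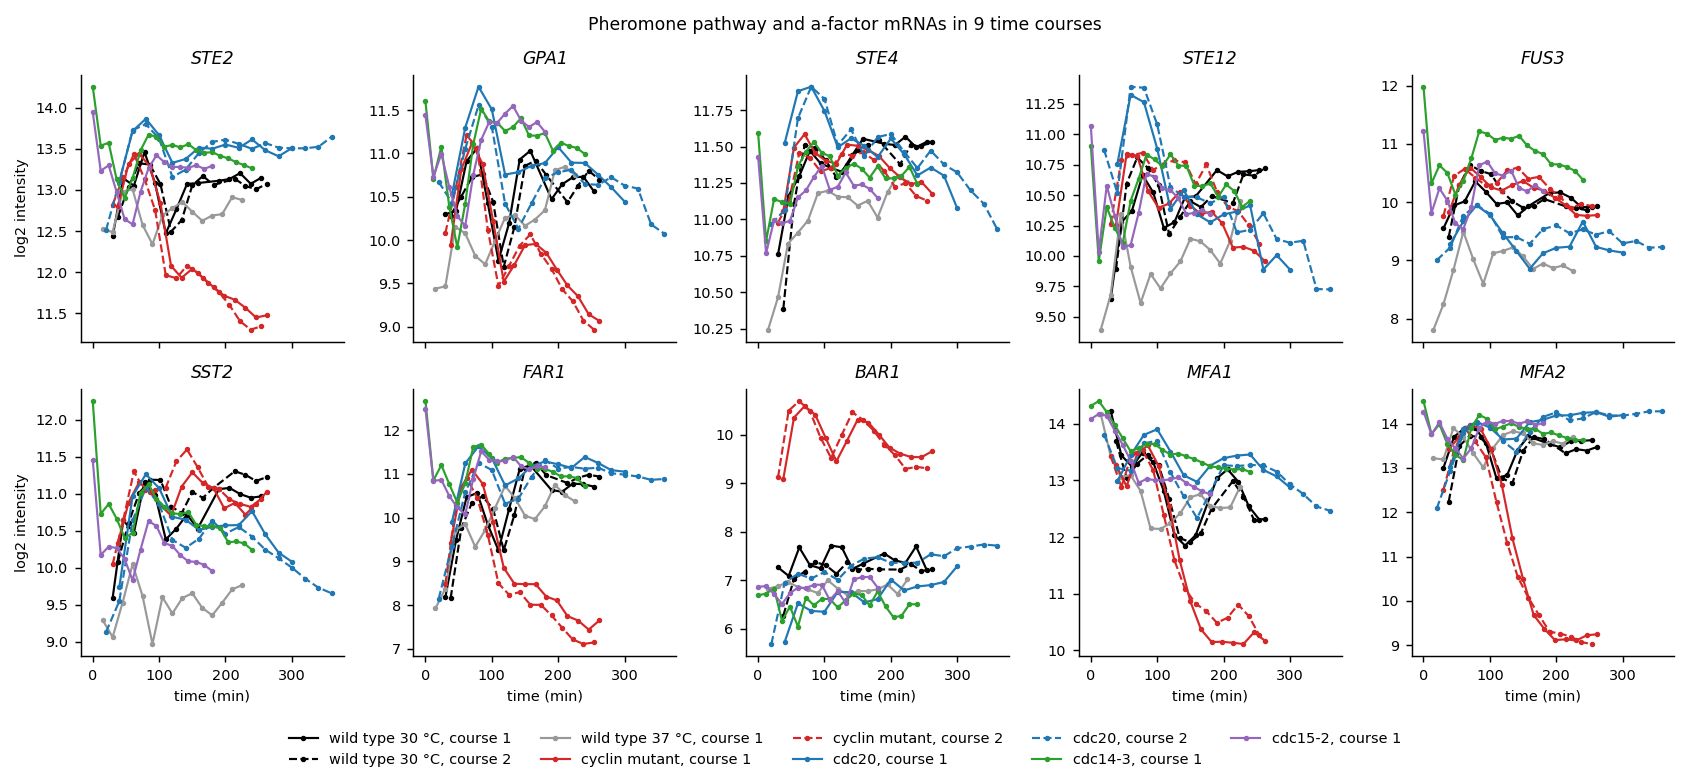
Log2 probe set intensity (y axis) against minutes after the start of the course (x axis) for the 10 genes, 1 panel per gene and 1 line per course, coloured by group. In the cyclin mutant MFA2 ran down to 9.03 and FAR1 to 7.11, BAR1 ran above every other course, and levels are to be read within a gene.

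STE2 encodes the alpha-factor receptor, GPA1 the G protein alpha subunit that holds the pathway off at rest, and STE4 the beta subunit that signals downstream. In the first and second wild type courses at 30 °C, STE2 peaked at 13.46 and 13.32, fell to 12.47 and 12.49 and returned to 13.08 and 13.17. GPA1 had a like course, from 11.06 and 10.76 down to 9.76 and 9.69, and back up to 11.03 and 10.92. The fitted ranges of both genes were 0.93 in that group, just under the threshold of 1. STE2 of the cyclin mutant started from a similar peak, 13.44 in both courses, and then declined to 11.45 at 246 min and 11.30 at 238 min. Its fitted range there was 1.97 (limma, adjusted p = 1.99e-17), and that of GPA1 was 1.94 (adjusted p = 1.46e-12). Both genes thus reached the same kind of early maximum in wild type and mutant and parted afterwards. The SD of STE4 over the arrays of a course was 0.14 to 0.30, and its range passed the threshold only in wild type at 30 °C (1.03, adjusted p = 1.54e-08) and at 37 °C (1.06, adjusted p = 4.52e-06). Without the first array of each course those ranges were 0.45 and 0.78, under the threshold.

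FUS3 encodes the MAP kinase that is specific to mating, and STE12 the transcription factor it acts on. FUS3 had its highest value of all courses in the first array of cdc14-3, at 11.98, and its lowest in the first array of wild type at 37 °C, at 7.81. It passed the rule in 5 of the 6 groups, with fitted ranges of 1.05 in wild type at 30 °C (adjusted p = 9.96e-06) and in cdc20 (adjusted p = 1.04e-08) and up to 1.43 in wild type at 37 °C (adjusted p = 0.000525). Those calls rested on few arrays or on 1 course. Without the first array of each course the FUS3 range was 0.60 in wild type at 30 °C, 0.80 at 37 °C (adjusted p = 0.132), 0.85 in cdc14-3 and 0.88 in cdc15-2. In cdc20 it was 0.83 without replicate 1, 0.95 without replicate 2 and 0.70 without the arrays before 30 min. STE12 changed in cdc20, from 11.32 and 11.39 at 60 min down to 9.89 and 9.73 in the last arrays (fitted range 1.48, adjusted p = 7.54e-11). In wild type at 30 °C its range of 1.07 (adjusted p = 1.73e-08) became 0.48 without the first arrays and 0.83 without replicate 1.

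FAR1 encodes the inhibitor of the G1 cyclin-dependent kinase that arrests pheromone-treated cells. It had the widest range of the set in both wild type groups, cdc20 and cdc15-2. In the first wild type course at 30 °C it rose from 8.18 at 30 min to 10.56 at 78 min, dropped to 9.26 at 110 min, and rose again to 11.20 at 158 min. The second course repeated these steps at 8.16, 10.49, 9.26 and 11.26, each 8 min later. The group's fitted range was 3.33 (limma, adjusted p = 2.02e-09). FAR1 of the cyclin mutant climbed to 11.10 and 10.91 at 70 and 62 min and then sank to 7.44 and 7.11, with a fitted range of 3.58 (adjusted p = 3.19e-18). Wild type at 37 °C showed a rise from 7.93 to 10.76 (fitted range 2.62, adjusted p = 0.00017). In cdc20 the lowest, median and highest arrays were 9.91, 11.20 and 11.63 in replicate 1 and 8.15, 10.96 and 11.32 in replicate 2.

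SST2 encodes the regulator of G protein signalling that speeds the return of Gpa1 to its inactive form, and BAR1 the secreted protease that degrades alpha factor. In wild type at 30 °C SST2 rose from 9.59 and 10.08 in the first arrays to 11.16 and 11.30 at most. Its fitted range was 1.44 (adjusted p = 3.81e-08), and 0.64 without the first arrays. In cdc20 it rose from 9.73 and 9.13 to 11.26 and 11.08 at 80 min and was back at 10.08 and 9.65 in the last arrays, a fitted range of 1.98 (adjusted p = 3.48e-12). In cdc14-3 and cdc15-2 the highest SST2 values, 12.25 and 11.46, were those of the arrested cells at 0 min. Its range of 1.11 in the cyclin mutant (adjusted p = 2.62e-06) was 0.74 without replicate 2. BAR1 passed the rule in the cyclin mutant (1.27, adjusted p = 3.9e-06) and in cdc20 (1.72, adjusted p = 4.38e-09). The cdc20 range of BAR1 was 0.97 without the arrays before 30 min and 0.73 after quantile normalization, both under the threshold. In cdc20, a group labelled bar1, BAR1 lay at 5.69 to 7.74, against 9.09 to 10.70 in the cyclin mutant. SNL1, a gene next to BAR1, lay at 5.73 to 7.71 in the same cdc20 courses. Whether so low a signal came from BAR1 mRNA was not tested.

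MFA1 and MFA2 encode precursors of a-factor, the lipid-modified pheromone that a cells export. MFA1 was highest at the start in wild type at 30 °C, fell to a minimum and rose to a lower second peak. In the first course it went from 14.23 at 30 min through 13.49 at 78 min to 11.85 at 142 min, then 13.20 at 206 min and 12.30 at 254 min. The second course passed through 13.69, 13.45, 11.91, 12.99 and 12.32. The fitted range was 1.80 in wild type at 30 °C (adjusted p = 8.1e-08) and at 37 °C (adjusted p = 1.3e-05), 1.30 in cdc14-3 (adjusted p = 4.41e-09) and 1.39 in cdc15-2 (adjusted p = 1.65e-08). In the last of these, MFA1 was highest at 12 min (14.17) and lowest in the last array (12.75). MFA1 of the cyclin mutant ran from 13.62 and 13.53 at 86 and 78 min to 10.11 and 10.27 late, a fitted range of 3.29 (adjusted p = 8.64e-17). MFA2 had the widest range of the set in that group, 4.81 (adjusted p = 4.28e-23). In cdc20 MFA2 was lowest in the first arrays, at 13.02 and 12.09, and reached 14.26 and 14.28 (fitted range 2.12, adjusted p = 2.81e-12). Both pheromone genes thus ended the cyclin mutant courses far below where any other course ended: MFA1 at 10.17 and 10.27 against 12.30 to 13.15, MFA2 at 9.25 and 9.03 against 13.48 to 14.28.

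STE2, GPA1, FAR1 and MFA2 shared a feature in wild type at 30 °C, a dip soon after the G1/S maximum of the cyclin gene CLN2, followed by a recovery. The dip was described with CLN2 as the clock, after the values had been seen: a fall of at least 0.5 from the highest array in the 40 min up to the CLN2 maximum to the lowest in the 40 min after it, then a return of at least 0.5 within 60 min. These 4 genes met it in both wild type courses, as did 94 of 5449 genes (1.73%). The a-specific genes STE6 and AGA2, outside the set, also met it in both wild type courses, and ASG7 did not. The CLN2 maximum lay at 94 and 102 min there, and the FAR1 minimum followed 16 min later in both. Over the 7 courses that were not of the cyclin mutant, the pattern held for FAR1 in 6, MFA2 in 6, STE2 in 5 and GPA1 in 5. It held for FUS3, SST2 and MFA1 in 3, for STE12 in 2, for BAR1 in 1 and for STE4 in 0. In cdc14-3 and cdc15-2 the CLN2 maximum lay at 36 min, so the window before it included the arrested cells at 0 min. There the fall of STE2, GPA1, FUS3, STE12, SST2, FAR1 and MFA2 was measured from that array. These courses enter the counts, and the share of all genes with such counts is not given here. Outside the set it held for STE6 and AGA2 in 4 and for ASG7 in 0. In both cyclin mutant courses it held for BAR1 alone of the 10 genes, where 0.294% of all genes met it. BAR1 there stood at 10.59, 9.46 and 10.31 at 70, 118 and 150 min of the first course, and at 10.70, 9.52 and 10.46 at 62, 110 and 142 min of the second. FAR1, STE2 and MFA2 in those courses went down and did not return: FAR1 stood at 8.49 and 8.24 in the dip and at 8.48 and 8.30 at most in the next 60 min.

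**Figure D2:**
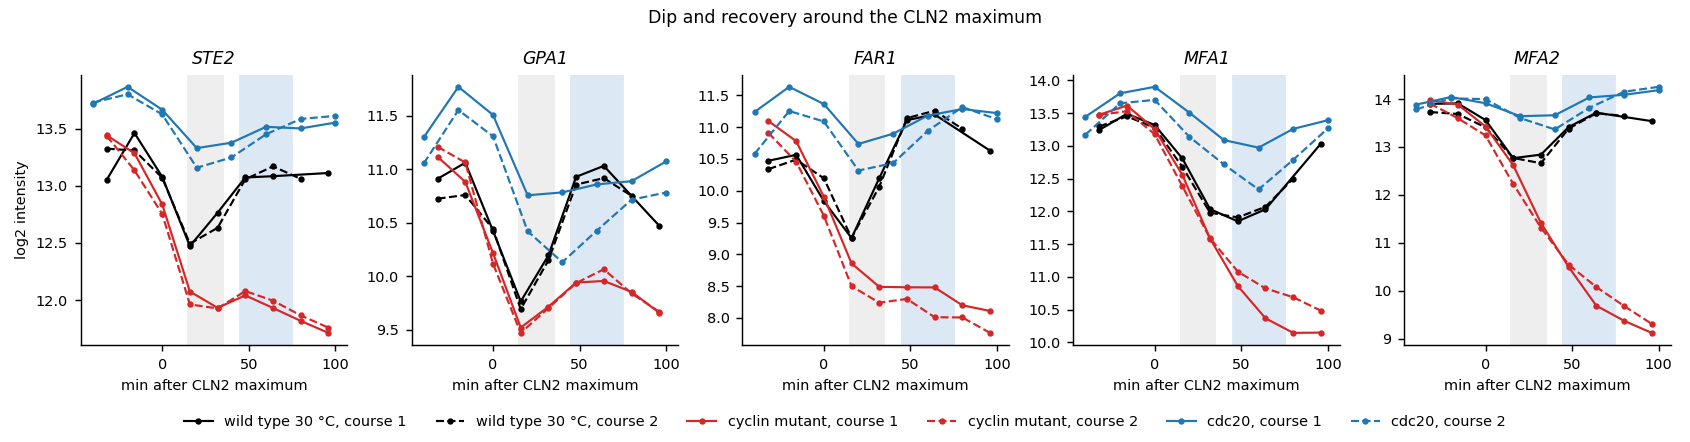
Log2 probe set intensity (y axis) of STE2, GPA1, FAR1, MFA1 and MFA2 against minutes after the CLN2 maximum of each course (x axis), with 1 line for each course of the cyclin mutant, cdc20 and wild type at 30 °C, with the windows of 15 to 35 and 45 to 75 min shaded. FAR1 climbed from the first to the second window by 1.43 and 1.54 in wild type and by 0.45 and 0.62 in cdc20. It moved by -0.19 and -0.21 in the cyclin mutant. Each window held a single array in cdc20.

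The size of this recovery was compared between groups as 1 value per course, the mean 45 to 75 min after the CLN2 maximum minus the mean 15 to 35 min after it. Sampling times differed between groups. In each cdc20 course both windows held a single array, at 120 and at 160 min, while wild type at 30 °C had more. In cdc14-3 and cdc15-2 the early window held only the array at 60 min. This measure was chosen after seeing the data, on the same arrays, so its tests are no independent support for the pattern. For FAR1 it was 1.43 and 1.54 in wild type at 30 °C, -0.19 and -0.21 in cyclin mutant cells, 0.45 and 0.62 in cdc20, 0.43 in wild type at 37 °C, 0.67 in cdc14-3 and 1.30 in cdc15-2. For MFA2 it was 0.76 and 0.83 in wild type at 30 °C, -1.92 and -1.46 in cyclin mutant cells, 0.39 and 0.21 in cdc20, 0.55 in wild type at 37 °C, 0.88 in cdc14-3 and 0.77 in cdc15-2. The cyclin mutant courses lay below every other course for both genes. In cdc14-3 the FAR1 minimum, 10.35 at 48 min, came before the early window, so the 0.67 was not measured from that minimum. CLN2 itself, the clock of this measure, was higher at 100 to 180 min in the cyclin mutant than in wild type at 30 °C by 1.30 (limma, adjusted p = 0.0306), and its part in the result was not tested. Against wild type at 30 °C, this value was lower in the cyclin mutant for 6 of 10 genes and higher for 0 (limma over 9 courses), where 3.03% of all genes were called lower. FAR1 differed by -1.69 (SE 0.0843, adjusted p = 0.000327) and MFA2 by -2.49 (SE 0.155, adjusted p = 0.000778). GPA1, at 1.00 and 0.97 in wild type and 0.33 and 0.41 in the mutant, differed by -0.61 (adjusted p = 0.00649). MFA1 was lower in the late than in the early window in both groups: its values were -0.48 and -0.34 in wild type and -1.46 and -1.03 in the mutant, a difference of -0.83 (adjusted p = 0.0373). The wild type minima of MFA1, 11.85 at 142 min and 11.91 at 150 min, lay within the late window. MFA1 rose after them in wild type, so its later recovery there is not in this measure. STE2 differed by -0.47 (adjusted p = 0.0229) and STE12 by -0.30 (adjusted p = 0.0437). The calls of FAR1 and MFA2 held when any 1 of the 6 courses of wild type at 30 °C, cyclin mutant or cdc20 was left out. Those of STE2 (adjusted p from 0.0922 to 0.212) and STE12 (0.126 to 0.32) were lost without any 1 course of either group. GPA1 lost its call without wild type replicate 1 (0.061), cyclin mutant replicate 1 (0.0856) or cyclin mutant replicate 2 (0.0518), and MFA1 without wild type replicate 1 (0.151) or 2 (0.16) or cyclin mutant replicate 1 (0.168).

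In cdc20 the value was lower than in wild type at 30 °C for 3 of the 10 genes and higher for 0, where 4.33% of all genes were called lower. GPA1 moved by 0.10 and 0.01 in cdc20, a difference of -0.93 (limma, adjusted p = 0.0015). FAR1 differed by -0.95 (adjusted p = 0.00293) and STE12 by -0.27 (adjusted p = 0.0462), and the STE12 call was lost without any 1 of these 6 courses other than cdc20 replicate 1 (adjusted p from 0.0806 to 0.227). MFA2 differed by -0.49 (adjusted p = 0.098) and STE2 by -0.27 (adjusted p = 0.0835), short of the threshold. This comparison and the one with the cyclin mutant share the wild type courses. Of the a-specific genes outside the set, STE6, the a-factor exporter, had a lower value in the cyclin mutant (-0.74, adjusted p = 0.0101) and in cdc20 (-0.52, adjusted p = 0.0272). AGA2, the adhesion subunit of a-agglutinin, had lower values of this measure in both as well (-0.39, adjusted p = 0.0488, and -1.19, adjusted p = 0.00113). ASG7 was called in neither: it differed by -0.31 in the cyclin mutant (adjusted p = 0.0836) and by 0.23, the other way, in cdc20 (adjusted p = 0.12). Among 14 other genes of the pheromone cascade, 1 was lower and 1 higher in the cyclin mutant: TEC1, which encodes a partner of Ste12, at -0.64 (adjusted p = 0.00571) and DIG2, which encodes an inhibitor of Ste12, at 0.58 (adjusted p = 0.027). In cdc20 2 of these 14 were lower and 0 higher. Of 14 mating effectors, genes that pheromone induces, 4 were higher and 0 lower in the cyclin mutant, with a median of 0.213 against -0.384 for the set. In cdc20 3 were higher and 2 lower. Of all genes, 3.89% were called higher in the cyclin mutant and 6.72% in cdc20.

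The next comparison was of levels in the same span of minutes, the mean of each course at 100 to 180 min, a window that every course covered. The window was not matched for cell cycle stage. The CLN2 maximum lay at 36 min in cdc14-3 and cdc15-2, at 75 min in wild type at 37 °C and at 94 to 102 min in the other courses. The part of this in the differences below was not tested. The 3 groups with 1 course borrow their spread from the others, and every comparison with wild type at 30 °C shares its 2 courses. In the cyclin mutant 3 of the 10 genes were lower than in wild type at 30 °C and 1 was higher, where 3.05% and 2.18% of all genes were. The median difference was -0.293 over the 10 genes and 0.0187 over all genes. MFA2 stood at 11.53 and 10.77 in the mutant and at 13.18 in both wild type courses, a difference of -2.04 (SE 0.226, adjusted p = 0.00401), or 4.1-fold lower. FAR1 stood at 8.84 and 8.21 against 10.44 and 10.38, a difference of -1.89 (SE 0.208, adjusted p = 0.004), or 3.69-fold lower. STE2 stood at 12.16 and 11.97 against 12.85 and 12.88, a difference of -0.80 (SE 0.113, adjusted p = 0.0109). The course values of mutant and wild type did not overlap for any of the 10 genes, 5 lower and 5 higher in the mutant, and with 2 courses against 2 this also held for 25.7% of all genes in the lower and 31.7% in the higher direction. The STE2 call was lost without wild type replicate 1 (adjusted p = 0.104) or 2 (0.098) or cyclin mutant replicate 2 (0.0623). MFA1 was at 11.73 and 11.31 against 12.18 and 12.38 (adjusted p = 0.0729), and GPA1 at 9.87 and 9.80 against 10.48 and 10.41 (adjusted p = 0.0562), neither of which passed; without either cdc20 course, which enters only through the shared spread, both did (0.042 and 0.0189). FUS3, STE12, SST2 and STE4 differed by 0.35, 0.20, 0.42 and 0.02 (adjusted p of 0.2 or more). In a later window, 190 to 262 min, added after seeing the data, the differences were -4.32 for MFA2, -3.27 for FAR1, -2.33 for MFA1 (adjusted p = 0.000141), -1.57 for STE2 and -1.32 for GPA1 (adjusted p = 0.000282).

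**Figure D3:**
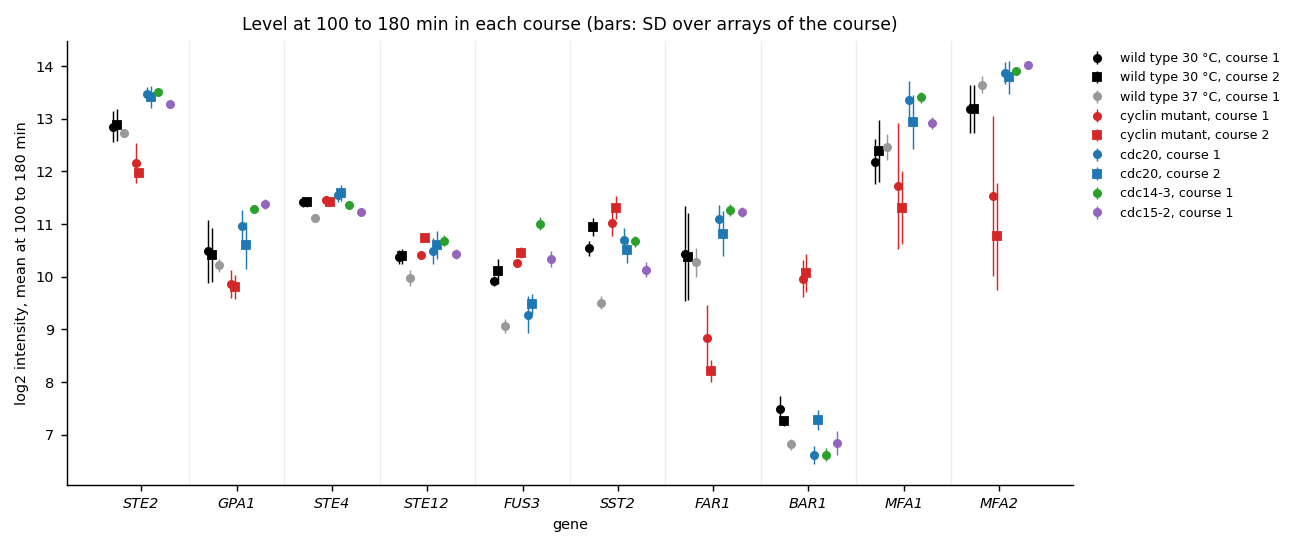
Mean log2 probe set intensity at 100 to 180 min (y axis) of the 10 genes (x axis) in each of the 9 courses, coloured by group, with bars of 1 SD over the arrays of the course. FUS3 was at 11.01 in cdc14-3 and 10.34 in cdc15-2 and at 9.06 in wild type at 37 °C, BAR1 was at 9.97 and 10.08 in the cyclin mutant, and levels are to be read within a gene.

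In cdc20, STE2 and MFA1 were higher than in wild type at 30 °C and FUS3 was lower, where 25.7% of all genes were called higher and 15.7% lower, so the 3 calls of 10 were below the background. STE2 stood at 13.48 and 13.41, 0.58 above wild type (SE 0.113, adjusted p = 0.00797). MFA1 stood at 13.35 and 12.94, 0.86 above (SE 0.191, adjusted p = 0.0123). FUS3 stood at 9.28 and 9.48 against 9.92 and 10.10, a difference of -0.63 (SE 0.133, adjusted p = 0.0103). Each of these calls was lost without a wild type course: STE2 without replicate 1 (0.0632) or 2 (0.0577), MFA1 without replicate 1 (0.0734) and FUS3 without replicate 2 (0.0853). The late TDH1 3' minus 5' signal was 3.27 and 3.17 in cdc20 and 2.31 and 1.93 in wild type, and its part was not tested.

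Against wild type at 37 °C, FUS3 and GPA1 were higher in both strains released from alpha factor. Each comparison sets 1 course against 1, so its p-value rests on the spread between the courses of other groups, and both share that wild type course. FUS3 was at 11.01 in cdc14-3 and 10.34 in cdc15-2 against 9.06, differences of 1.95 (SE 0.188, adjusted p = 0.00428, 3.86-fold) and 1.28 (SE 0.188, adjusted p = 0.0217). GPA1 was at 11.28 and 11.38 against 10.21, differences of 1.07 (adjusted p = 0.0385) and 1.17 (adjusted p = 0.036). These were 2 of 10 genes in each comparison, where 1.8% and 0.973% of all genes were called higher. The GPA1 calls were lost without any 1 course of wild type at 30 °C or of the cyclin mutant (adjusted p from 0.0773 to 0.085), which enter only through the shared spread. The FUS3 call of cdc15-2 was lost without either cyclin mutant course (0.0511). SST2 (1.17, adjusted p = 0.0521) and STE2 (0.78, adjusted p = 0.0505) in cdc14-3 were just short of the threshold, and passed it without either cdc20 course (0.0326 and 0.0297) and after quantile normalization (0.0496 and 0.0417). The late TDH1 3' minus 5' signal was 1.24 for cdc14-3, 2.52 for cdc15-2 and 1.53 for their wild type, and its part was not tested. Between cdc14-3 and cdc15-2 no gene of the set passed, where 0.11% of all genes did and 464 genes had an unadjusted p under 0.05.

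The arrays at 0 and 12 min of cdc14-3 and cdc15-2 show the set as the alpha-factor arrest ended. Release also moved the cells from 25 to 37 °C, so the end of the arrest and the change of temperature cannot be told apart. They are single arrays, so the differences have no replicate test within a strain. The TDH1 3' minus 5' signal of the 2 arrays was 0.60 and 0.53 for cdc14-3 and 1.76 and 0.90 for cdc15-2, and its part was not tested. FAR1 was at 12.67 and then at 10.85 in cdc14-3, and at 12.48 and then at 10.84 in cdc15-2. FUS3 went from 11.98 to 10.32 and from 11.22 to 9.81. SST2 went from 12.25 to 10.73 and from 11.46 to 10.17. These 3 genes were at least 1 lower at 12 min in both strains, where 3.93% of all genes were. The differences of STE12 were -0.95 and -1.04, those of GPA1 -0.90 and -0.71, of STE4 -0.74 and -0.66, of STE2 -0.72 and -0.71, and of MFA2 -0.75 and -0.51. With them, 8 of the 10 genes were at least 0.5 lower in both strains, where 9.76% of all genes were. MFA1, with 0.09 in both, and BAR1, with 0.04 and 0.02, had differences near the all-gene medians of 0.052 and 0.0447. BAR1 lay at 6.69 to 6.88 on these arrays of strains labelled bar1, against 9.09 to 10.70 in the cyclin mutant. A flat value at that level does not show whether BAR1 responds to release. Of 14 mating effector genes, the cell fusion and agglutination genes that pheromone induces, 9 were at least 1 lower in both strains, with PRM4 at -2.70 and -1.69 and PRM6 at -2.24 and -2.14. Of the 14 cascade genes 0 were.

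The decline from the start was also set against the courses of cells selected by size. For each course the mean of the arrays within 30 min of the first was taken minus the late mean. For SST2 this was 0.60 in cdc14-3 and 0.50 in cdc15-2, and between -1.17 and -0.21 in the 7 other courses. For FAR1 it was 0.31 and 0.17 in the released strains, 1.22 and 1.18 in the cyclin mutant, and between -2.07 and -0.52 in the other 5 courses. SST2 was the 1 gene of the set whose values in both released strains lay above all other courses, as did those of 12% of all genes. No gene of the set passed the test of the alpha-factor courses against the others (limma: SST2 1.09, adjusted p = 0.103; FAR1 1.04, adjusted p = 0.199), where 2.95% of all genes did and 1232 had an unadjusted p under 0.05. When only the first array of each course stood for the start, SST2 (2.26, adjusted p = 0.00764), FAR1 (2.85, adjusted p = 0.0174) and FUS3 (1.57, adjusted p = 0.0187) passed. Without cdc20 replicate 1 the adjusted p was 0.0288 for SST2 and 0.0134 for FAR1, and without cdc20 replicate 2 it was 0.0313 for FAR1. In the main test, with the mean of the arrays within 30 min and all courses, 11 of the 14 mating effectors passed. All 11 were higher early in the alpha-factor courses, where 2.15% of all genes were called higher.

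BAR1, an a-specific gene like STE2 and MFA2, differed in the opposite direction in the cyclin mutant. Its 30 arrays there lay between 9.09 and 10.70 with a median of 9.90, and the 112 other arrays lay between 5.69 and 7.74 with a median of 6.91, so the groups did not overlap. At 100 to 180 min BAR1 was at 9.97 and 10.08 in the mutant and at 7.49 and 7.26 in wild type at 30 °C, a difference of 2.65 (SE 0.216, limma, adjusted p = 0.00121), or 6.26-fold. The cyclin mutant is the group whose label did not list bar1. Its arrays lay above all others for 3 of 5449 genes (0.0551%), and the other two were the protein-coding neighbours of BAR1 (YIL015W) on either side in the RefSeq gene order of assembly R64. SNL1 (YIL016W) lay at 10.39 to 11.42 against 5.73 to 7.71, with a late difference of 3.71 (SE 0.145, adjusted p = 8.33e-05). YIL014C-A lay at 9.12 to 10.46 against 5.53 to 7.44, with a difference of 2.57 (SE 0.172, adjusted p = 0.000573). The next gene beyond SNL1, VID28, differed the other way, by -1.67 (adjusted p = 0.000573). RPL2B beyond it (-0.04, adjusted p = 0.882), and MNT3 (0.01, adjusted p = 0.976) and PDR11 (-0.22, adjusted p = 0.429) on the other side, did not pass. These neighbours were chosen after their values were seen. What set BAR1, SNL1 and YIL014C-A apart was not tested, and the mutation status of the locus cannot be told apart from the group.

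**Figure D4:**
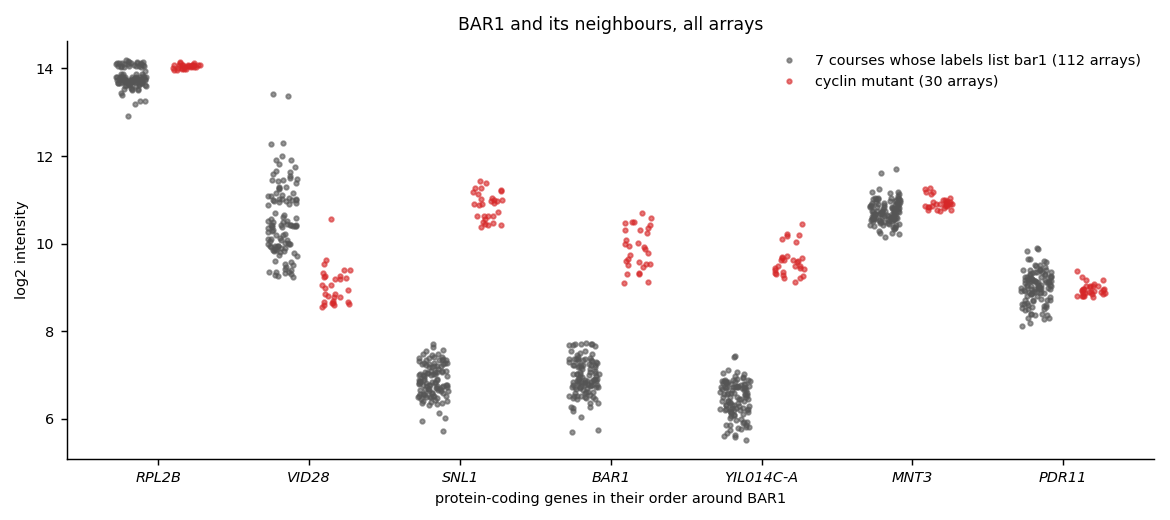
Log2 probe set intensity (y axis) of BAR1 and the 3 protein-coding genes on each side in chromosomal order (x axis), with the 30 cyclin mutant arrays and the 112 other arrays as points. SNL1, BAR1 and YIL014C-A formed separate bands, with BAR1 at 9.09 to 10.70 against 5.69 to 7.74, while RPL2B, MNT3 and PDR11 overlapped.

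The other genes of the pathway were counted by list at 100 to 180 min. The shares of all genes called to read them against were 2.18% higher and 3.05% lower in the cyclin mutant, 25.7% higher and 15.7% lower in cdc20, and 1.8% and 0.973% higher in cdc14-3 and cdc15-2, so counts in cdc20 have a high background. Of the 3 a-specific genes outside it, STE6 (-1.47, limma, adjusted p = 0.00131) and AGA2 (-1.07, adjusted p = 0.00526) were lower in the cyclin mutant, and STE6, AGA2 and ASG7, which dampens pheromone signalling after mating, were higher in cdc20 by 0.88, 0.49 and 0.88. In cdc14-3 and cdc15-2, ASG7 (2.26 and 1.93) and AGA2 (1.63 and 1.10) were higher than in wild type at 37 °C. Of the 14 cascade genes, 1 was higher and 1 lower in the cyclin mutant: DIG2 at 0.56 and MCM1, a regulator of a-specific genes, at -0.52. In cdc20 1 was higher and 4 were lower, with DIG1, the second Ste12 inhibitor, at -1.19 and TEC1 at -1.02. In cdc14-3 TEC1 (1.52) and KSS1, the MAP kinase closest to Fus3 (0.91), were higher, and in cdc15-2 TEC1 (1.39) was. Of 7 negative regulators, 0 passed in the cyclin mutant, 3 in cdc20, and AFR1, which acts on the receptor during adaptation, was higher in cdc14-3 (1.06, adjusted p = 0.0371) and cdc15-2 (1.05, adjusted p = 0.0451). Of 8 genes that mature or export a-factor, STE6 and RCE1, a CAAX protease (-0.74), were lower in the cyclin mutant. In cdc20 3 of them were higher, with the methyltransferase gene STE14 at 1.10, and 1 was lower, the protease gene STE23 at -0.74, and 0 passed in cdc14-3 or cdc15-2. Of the 14 mating effectors, 3 were higher in the cyclin mutant, 6 in cdc20, 10 in cdc14-3 and 9 in cdc15-2, and 0 were lower in any of these. In cdc14-3 AGA1, the anchor subunit of agglutinin, was higher by 3.35 and the membrane fusion gene PRM1 by 3.04.

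To place each gene, its log2 values were centred on each course's mean and correlated with those of all other genes over the 142 arrays. These correlations are descriptions, since the arrays of a course form a time series and share group and array series. STE2 was most like STE6 (r = 0.895), MFA2 (0.887) and FAR1 (0.867). MFA2 was most like STE2, the replication helicase gene MCM3 (0.859) and STE6 (0.844), and FAR1 like STE2, the helicase gene MCM7 (0.831) and MFA2 (0.793). GPA1 was most like STE6 (0.83) and STE2 (0.8), and then GYP8 (0.785). For each of these 4 genes another of them or STE6 thus ranked first. FUS3 was most like NPT1 (0.743), SST2 (0.694) and STE12 (0.661), and SST2 most like FUS3, PRM4 (0.687) and PCL2 (0.686). STE4 was most like YMR321C (0.85), GCD6 (0.847) and PUS4 (0.845), and STE12 most like PRP39 (0.819), TYW3 (0.805) and RRP43 (0.789). MFA1 was most like PRY1 (0.838), UTH1 (0.817) and RAD1 (0.808), although it also correlated with MFA2 (0.745). BAR1 was most like its neighbour SNL1 (0.755), then YJL052C-A (0.717) and ECM23 (0.706). Of the 142 arrays, 112 were of groups labelled bar1, where BAR1 lay at 5.69 to 7.74 and SNL1 at 5.73 to 7.71. The part of this low signal in the correlation was not tested. Among pairs within the set the lowest value was that of the G protein beta subunit gene STE4 with MFA1, at -0.153.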

How the data were processed

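RNA was measured on 142 Affymetrix arrays. The deposited values are linear probe set intensities, made by the authors with affy per the submitters' processing notes; these notes give no version, summary method or normalization. Of 5900 probe sets, 184 controls and 218 without a gene name were left out. The other 5498 gave 5449 genes, after 12 symbols were updated through RefSeq, with the probe set of highest mean kept for 47 genes. The log2 of the deposited intensities was taken with a pseudocount of 0; the plan had assumed log2 values. The values of wild type 30 °C replicate 2 were moved up 1 row, because only that placement matched replicate 1; no label mentions it.

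Changes over time were tested with limma 3.58.1 in R 4.3.3 (natural spline of 5 degrees of freedom, an intercept per course, within each group). Course values were tested with limma over the 9 courses and 6 group means. The p-values were adjusted by Benjamini-Hochberg over all 5449 genes. No label says that repeat courses were separate cultures, so p-values measure only the spread between these courses, and in the time tests between arrays. Scripts were tested on simulated data. The members and lists were chosen with earlier results of these data known. The text names all 10 members, the 3 genes most alike to each, up to 4 called genes per list and comparison, control probe sets and cell cycle landmarks; BAR1's neighbours, CLB1, CLB3, CLB4, CLB5, CLB6 and CDC20 and some list genes named for their role were chosen afterwards. The number of arrays limits the precision. Alternatives were quantile normalization, log2 of the value plus 50, a filter at the 20th percentile, the mean of probe sets, a 4-df spline, other windows, left-out arrays and courses, the replicate number as a block, and the second wild type course as deposited. Figures were drawn with matplotlib 3.10.9.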

Additional observations from a re-analysis of the deposited data

Results flagged for a closer look

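The recovery after the CLN2 maximum differed from wild type at 30 °C by a test of the difference between groups (limma over 9 courses), in a measure chosen after seeing the data. In the cyclin mutant the difference was -2.49 for MFA2, -1.69 for FAR1, -0.83 for MFA1, -0.61 for GPA1, -0.47 for STE2 and -0.30 for STE12. In cdc20, with a single array in each window, it was -0.95 for FAR1, -0.93 for GPA1 and -0.27 for STE12. These 9 values were the ones called, so their common direction is no support, and both comparisons share the 2 wild type courses. Of the genes not called, BAR1 differed by 0.84 in the cyclin mutant and 0.33 in cdc20. The second wild type course at 30 °C was moved up 1 row. In the first and the second wild type course the recovery of FAR1 was 1.43 and 1.54, and that of GPA1 1.00 and 0.97.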

How the results depend on the processing

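Of the values of the 10 genes under the alternatives, 553 kept their direction and their side of the threshold, 109 lost a call, 39 gained one and 3 reversed. With wild type 30 °C replicate 2 as deposited, the reversed values were 0.20 for STE2 in the cyclin mutant, and -0.54 for GPA1 and 0.0165 for FUS3 in cdc20. Under that setting 0 genes were called in each of the 5 comparisons at 100 to 180 min, 1 at the start, 0 (cyclin mutant) and 1 (cdc20) in recovery and 1196 over time in wild type at 30 °C, and 1 gene instead of 3 had all cyclin mutant arrays above the others. Genes changing over time numbered 873 in wild type at 30 °C without first arrays (1963 with them), and 462 in cdc14-3 and 327 in cdc15-2 without the arrays before 30 min. For the late level, the window from 100 min to the end gave 836 genes in the cyclin mutant, 387 in cdc14-3 and 215 in cdc15-2 against wild type, and 10 between the last pair. The window of 190 to 262 min gave 1879 in the cyclin mutant. The filter at the 20th percentile gave 3 between cdc14-3 and cdc15-2. With first arrays alone 327 genes differed at the start, and 6 against wild type at 37 °C alone. The numbers do not pair the courses (correlations of deviations from -0.0958 to 0.0541). With the replicate block, in a fit of the groups with repeat courses only, 179 genes differed between the cyclin mutant and wild type; FAR1 (adjusted p = 0.039) and MFA2 (0.0484) in cdc20 gained a late call, and MFA1 (0.0511) and STE12 (0.0684 and 0.0664) lost theirs in recovery. Leaving out 1 course gave 67 to 423 genes for the cyclin mutant (285 with all), 848 to 2397 for cdc20 (2255), 62 to 574 for cdc14-3 (189), 62 to 430 for cdc15-2 (142), 0 to 6 between cdc14-3 and cdc15-2 (6), 33 to 475 at the start (161), and 69 to 631 (377) and 88 to 1029 (602) in recovery in the cyclin mutant and cdc20. Where one of 2 courses was left out, the lone course was assumed to vary like the other groups. The cause of these changes was not tested. Signal over background was not given.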

Other observations

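Sporulation genes were measured beside the set as markers of another cell state. Of IME2, NDT80, SPS4 and DIT1, 1 was lower at 100 to 180 min in the cyclin mutant, 3 were higher in cdc20, and 2 were lower in each of cdc14-3 and cdc15-2. Of all genes, 3.05% were called lower in the cyclin mutant, 25.7% higher in cdc20, and 1.67% and 1.63% lower in cdc14-3 and cdc15-2. Of the alpha-cell genes, MF(ALPHA)2 (-1.43, limma, adjusted p = 0.00141) and MF(ALPHA)1 (-0.61, adjusted p = 0.0188) were lower in cdc20 than in wild type at 30 °C, and SAG1 was higher in cdc14-3 than in wild type at 37 °C (1.15, adjusted p = 0.0409).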
